A study of Mus musculus with 6 samples.

Results

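The 39 Hox genes of the mouse were described in RNA-seq data of intestinal epithelial cells (IECs) taken from the colon. The genes were taken by name with no cut on their values, though earlier results of these data were known. Every row of the gene table whose symbol was Hoxa, Hoxb, Hoxc or Hoxd followed by digits was kept, which gave 39 of 55487 listed genes and left out antisense transcripts. They comprised 11 HoxA, 10 HoxB, 9 HoxC and 9 HoxD genes.

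Hox genes encode homeodomain transcription factors that give cells a position along the head-to-tail axis. In mammals they lie in 4 clusters, and the members of different clusters that stem from the same ancestral gene share a number, the paralog group. Low numbers sit at the 3′ end of a cluster and are used towards the head, and high numbers sit at the 5′ end and are used towards the tail. The hindgut, from which the colon forms, is known for the use of the 5′ genes. Polycomb proteins keep unused Hox genes silent, and the trithorax proteins keep used ones active.

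The 6 libraries were 3 of Nsd2 Vil-KO and 3 of Nsd2 f/f genotype, the second labelled WT, called Vil-KO 1 to 3 and f/f 1 to 3 from the numbers of the labels. Nsd2 encodes a methyltransferase that places the H3K36me2 mark. Both genotypes carried floxed Nsd2 alleles on a C57BL/6J background, and the Nsd2 Vil-KO mice also carried Cre under the Villin promoter, which is active in intestinal epithelium. Colitis had been induced in both with dextran sodium sulphate (DSS), which the methods give as 2% for 5 days in mice of 2 months. No untreated mice were in the series, so all values describe colon after DSS. The IECs were released from colon pieces with 8 mM EDTA and were not sorted, so cells of other types could be present. The labels do not say whether each library is 1 mouse, and if libraries shared an animal or culture the p-values would measure technical spread.

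The libraries held between 15439123 and 20350539 counted reads, and 3 counts, used as the floor of a single library, corresponded to between 0.146 and 0.242 CPM, the counts scaled to the size of the library. Nsd2 CPM was 24.1, 10.4 and 20.8 in the 3 Vil-KO libraries against 47.8, 51.1 and 24.5 in the 3 f/f libraries. Every Vil-KO library was below every f/f library, though f/f 3 was barely above Vil-KO 1. The Nsd2 log2 fold change of -1.16 ± 0.40 (SE) had an unadjusted p below 0.05, with an adjusted p of 0.999 by the quasi-likelihood test of edgeR. The counts cover the whole gene, so reads from exons outside the deleted part are included. The epithelial markers Epcam and Lgals4 were high in all 6 libraries. Vil-KO 2 and f/f 3 stood apart from the other 4, with mean Spearman correlations to the remaining libraries of 0.927 and 0.937 against 0.959 to 0.964. Mitochondrial genes took 19.6% of the counts of f/f 3 and 5.51 to 9.13% of those of the other 5. Xist, the RNA of the inactive X chromosome, was at 204 CPM in Vil-KO 2 and 347 CPM in f/f 3 and at 0.0487 to 0.255 CPM in the other 4, and its part in the results was not tested.

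Sequences of the homeobox, the 180 bases that encode the DNA-binding homeodomain, are given for the genes on which the results turn. The 3 paralogs of group 13 are shown because they led the Hox genes of these libraries. Hoxb6 is shown because it is the one Hox gene that met the criterion of the genotype comparison. Capitals mark the codons of the recognition helix, the part of the homeodomain that lies in the major groove of DNA. All were read from GENCODE vM21 transcripts.
Hoxb13: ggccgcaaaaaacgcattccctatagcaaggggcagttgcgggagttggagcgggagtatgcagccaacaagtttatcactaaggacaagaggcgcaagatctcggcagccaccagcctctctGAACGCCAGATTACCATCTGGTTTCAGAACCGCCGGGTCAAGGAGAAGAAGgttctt
Hoxd13: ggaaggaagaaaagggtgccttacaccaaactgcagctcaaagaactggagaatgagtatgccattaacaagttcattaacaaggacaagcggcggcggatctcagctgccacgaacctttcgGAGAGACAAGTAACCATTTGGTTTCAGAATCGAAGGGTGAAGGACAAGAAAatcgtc
Hoxa13: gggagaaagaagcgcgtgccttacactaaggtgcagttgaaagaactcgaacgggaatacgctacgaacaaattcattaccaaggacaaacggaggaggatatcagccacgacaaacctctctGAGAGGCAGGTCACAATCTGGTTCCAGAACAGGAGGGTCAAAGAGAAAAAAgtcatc
Hoxb6: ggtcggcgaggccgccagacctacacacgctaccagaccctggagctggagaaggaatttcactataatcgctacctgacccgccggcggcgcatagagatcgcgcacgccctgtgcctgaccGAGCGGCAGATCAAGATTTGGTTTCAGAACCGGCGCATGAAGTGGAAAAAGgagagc

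The homeoboxes of Hoxb13 and Hoxd13 were identical at 67.2% of bases, those of Hoxb13 and Hoxa13 at 68.9%, and those of Hoxa13 and Hoxd13 at 73.9%. Between protein-coding transcripts of different Hox genes, the longest run shared letter for letter was 52 bases, in Hoxa6 and Hoxb4. Over all annotated transcripts, noncoding ones included, Hoxd4 shared 52.3% of its exon bases on the same strand with other genes, Hoxd3 among them, and Hoxc5 and Hoxc10 had 166 exon bases in common, so reads there could be split between genes.

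Of the 39 genes, 23 were detected, taken as more than 3 counts in at least 3 of the 6 libraries. All 11 HoxA genes were detected, as were 6 of 10 HoxB genes, 0 of 9 HoxC genes and 6 of 9 HoxD genes. A further 6 genes held some counts without reaching that rule (Hoxb2, Hoxb3, Hoxb5, Hoxc6, Hoxc8 and Hoxd4), and 10 held no count in any library. Those 10 were Hoxb1, Hoxc4, Hoxc5, Hoxc9, Hoxc10, Hoxc11, Hoxc12, Hoxc13, Hoxd1 and Hoxd3. A count of 0 allows a level of up to 0.146 to 0.242 CPM in a library, so transcripts below that level were not detectable at this depth. The whole HoxC cluster, which spans 102921103 to 103036852 on chromosome 15 (GRCm38), held 8 counts, all in Vil-KO 1, of which 6 fell on Hoxc8 and 2 on Hoxc6. The 3 other clusters held 28363 counts for HoxA, 43364 for HoxB and 12054 for HoxD over the 6 libraries.

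**Figure D1:**
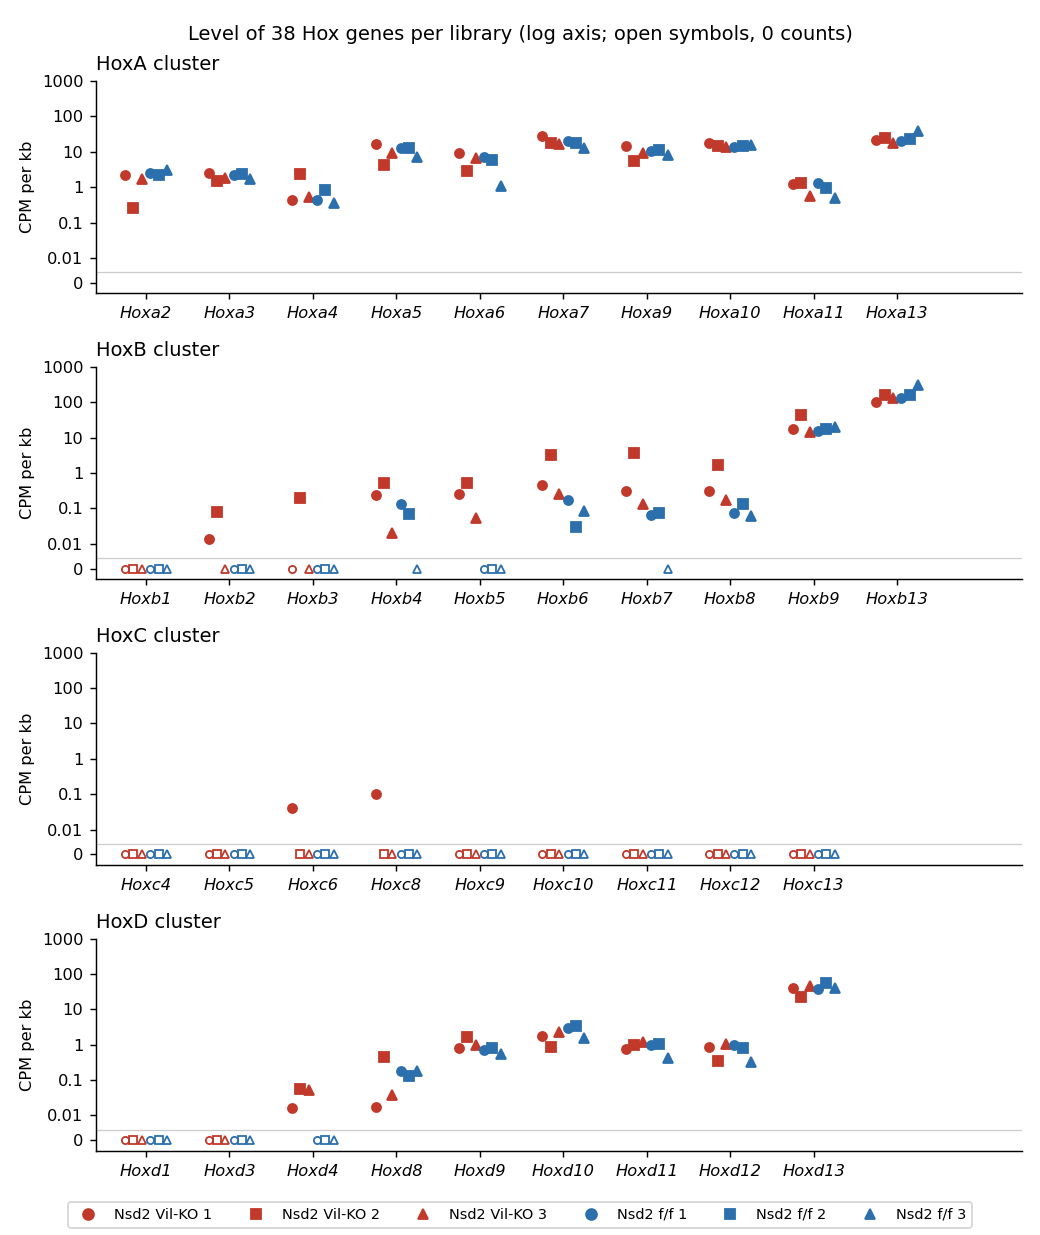
Level of 38 Hox genes in CPM per kb of exon (log axis) in each library, with 1 panel per cluster and genes ordered by paralog group. Red symbols are Vil-KO and blue symbols f/f libraries, and open symbols on the bottom line are libraries with 0 counts. The group 13 genes at the right of the HoxA, HoxB and HoxD panels were highest, Hoxb13 at a mean of 166, while HoxC held counts in 1 library only.

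Levels of different genes were compared as CPM per kb of exon length, since a longer transcript yields more reads. On that scale the 5′ end of the clusters dominated, as the plot of 38 genes shows. Hoxb13 was highest at 166 ± 74.7 CPM per kb (SD, n = 6), Hoxd13 followed at 40.2 ± 11 and Hoxa13 at 23.9 ± 7.07. Hoxb13 was above Hoxd13 in 6 of 6 libraries, and Hoxd13 was above Hoxa13 in 5 of 6. Hoxb9 at 21.4 ± 10.6 and Hoxa7 at 18.7 ± 5.10 followed, and their order was not stable, since Hoxb9 was above Hoxa7 in 2 of 6 libraries. Hoxa10 at 15.2 ± 1.65, Hoxa5 at 10.4 ± 4.46, Hoxa9 at 9.96 ± 3.21 and Hoxa6 at 5.45 ± 2.92 came next. Hoxa5 exceeded Hoxa9 in 3 of 6 libraries. That order depends on the exon length used, the union over all annotated transcripts, which was 5580 bases for Hoxa9 and 1877 for Hoxa5. In CPM their means were 55.6 and 19.5. The remaining genes had means of at most 2.12 CPM per kb.

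The genes next to the leaders on the chromosome were much lower. Hoxa11 lies between Hoxa10 and Hoxa13 and had a mean of 0.979 CPM per kb, and Hoxd12, the neighbour of Hoxd13, had 0.724. The HoxA cluster lies on chromosome 6, HoxB on chromosome 11 between 96194316 and 96368256, and HoxD on chromosome 2 between 74668310 and 74765142. Hoxb13 itself (chr11:96194316-96197447, plus strand) is separated from Hoxb9 (chr11:96271457-96276595) by a stretch that holds the long noncoding RNA Gm53. Gm53 had 1213, 1951 and 1048 counts in the Vil-KO and 1059, 833 and 834 in the f/f libraries, a log2 fold change of 0.39 ± 0.30 (SE) that did not pass the test.

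Group 13 made up most of the Hox transcripts. Its 3 detected members, of 4 in all, took 58.5 to 84.0% of the summed Hox CPM per kb of a library, with a mean of 69.6 ± 8.47% (SD, n = 6). Hoxb13 alone took 49.5 ± 10%, from 36.6% in Vil-KO 1 to 67.3% in f/f 3. The other libraries lay between 46.6 and 51.1%, so the lowest and the highest value came from different genotypes. Hoxa5 to Hoxa10 held 9.67 to 30.8% and Hoxb9 4.38 to 13.6%. The 30 genes outside these groups together took 1.90 to 6.33%.

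**Figure D2:**
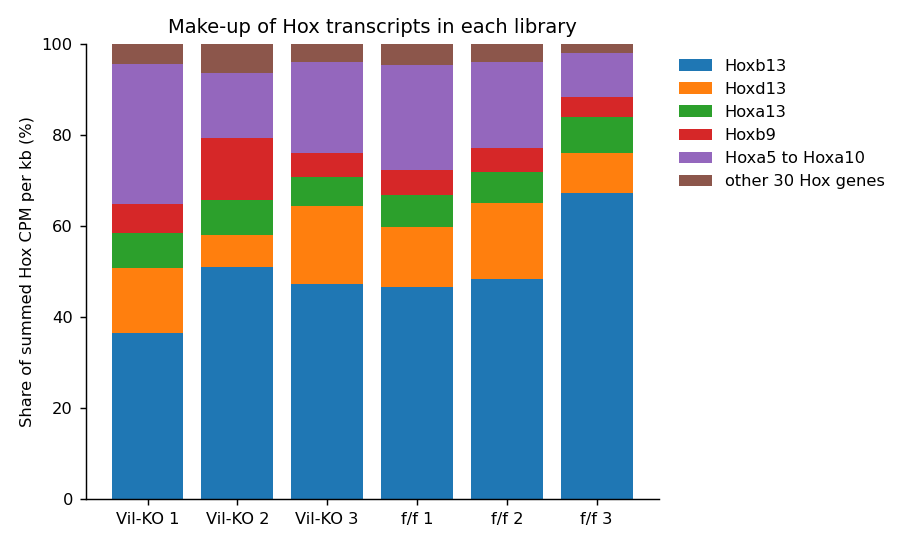
Share of the summed Hox CPM per kb held by Hoxb13, Hoxd13, Hoxa13, Hoxb9, the 5 genes Hoxa5 to Hoxa10 and the other 30 genes, as stacked bars that add to 100% in each of the 6 libraries. Hoxb13 is the largest block in each library, from 36.6 to 67.3%, and Hoxb9 is widest in Vil-KO 2 at 13.6%.

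The question put to the comparison of genotypes was which transcripts differ in DSS-treated colon epithelium when the epithelium lacks Nsd2. Of the 39 Hox genes, 18 had enough counts to be tested among 14650 genes. Only Hoxb6 met the criterion of a fold change above 1.2 with an unadjusted p below 0.05, which is 1 of 18 beside 2.96% of all tested genes. At an adjusted p below 0.05 the count was 0 for Hox genes and 0 for all tested genes by edgeR, and 1 of the 18 Hox genes had an unadjusted p below 0.05. DESeq2 gave 0 Hox genes at an adjusted p below 0.05, beside 0.0273% of all tested genes, and limma-voom gave 0 of either. Limma-voom with quality weights put 2 Hox genes past the unadjusted criterion, Hoxb6 and Hoxd10, beside 9.83% of all genes. Of the 18, 10 had a log2 fold change above 0 and 8 below, with a median of 0.0848 beside 0.0026 over all tested genes. The biological coefficient of variation was 41.2%, and the exact permutation test of 3 against 3 libraries cannot give a two-sided p below 0.1.

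**Figure D3:**
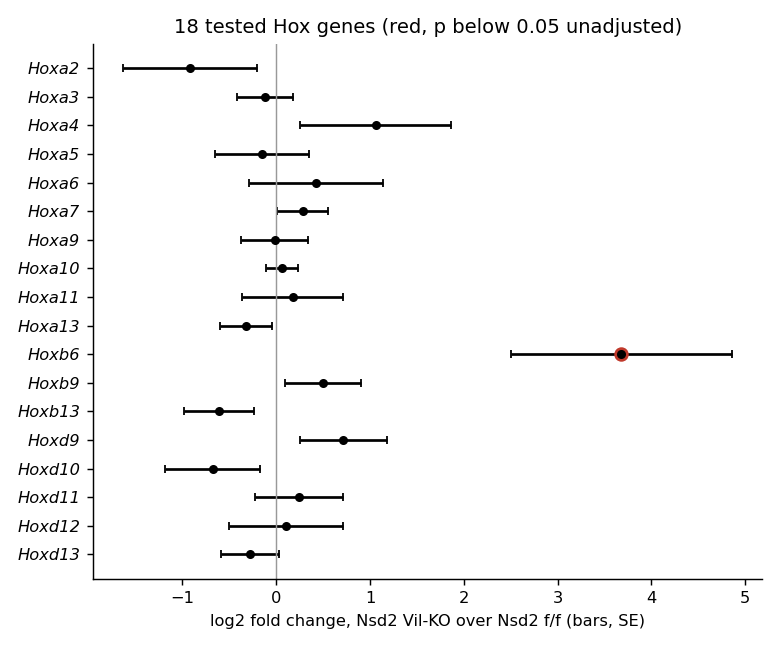
Fold change of the 18 tested Hox genes on the log2 scale, Vil-KO over f/f, as points with bars of 1 SE. Hoxb6, ringed in red, stands at 3.68 ± 1.18 and the other 17 genes lie between -0.92 and 1.06.

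Hoxb13 (ENSMUSG00000049604), a gene of the tail end of the axis and the distal gut, had 228, 354 and 287 CPM in the Vil-KO libraries and 287, 352 and 688 in the f/f libraries. The groups overlapped, and the one high value came from f/f 3. Its log2 fold change was -0.61 ± 0.37 (SE), with an adjusted p of 0.999 by edgeR.

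Hoxd13, which patterns the terminal hindgut, the genitalia and the digits, had 99.2, 55.3 and 117 CPM against 91.7, 138 and 99.0. The lowest value was in Vil-KO 2 and the others interleaved, at a log2 fold change of -0.28 ± 0.31. Hoxa13, its counterpart in the HoxA cluster, had 53.9, 59.6 and 43.9 CPM against 48.4, 55.7 and 92.9, again with f/f 3 on top, and a log2 fold change of -0.32 ± 0.28. Summed over group 13, the level was 432 ± 46.0 CPM in Vil-KO and 618 ± 235 in f/f (SD, n = 3 each), with the larger spread from f/f 3.

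The posterior HoxA genes did not pass the test. Hoxa10, a gene of the group that patterns the lumbar and hindgut region, had 59.6, 49.0 and 44.0 CPM against 46.2, 49.1 and 50.7 and a log2 fold change of 0.06 ± 0.17. Hoxa9 had 83.6, 30.8 and 51.5 CPM against 57.2, 64.7 and 45.6, so its highest and lowest value were both in Vil-KO, at -0.01 ± 0.36. Hoxa11 had 2.77, 3.05 and 1.33 CPM against 2.92, 2.24 and 1.13, with overlap, at 0.18 ± 0.54. Of the Hoxa11 exon bases 35.0% lie opposite exons of the antisense transcript Hoxa11os, which held 139 to 416 counts, and reads of the pair cannot be told apart if strand was not used in counting. Exons of other genes on the opposite strand also cover 25.4% of the Hoxa3 and 20.4% of the Hoxa7 exon bases.

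Genes of the middle and 3′ HoxA cluster were present in these colon preparations, and none of them passed the test. Hoxa7, at 80.7, 49.5 and 47.3 CPM against 57.8, 50.6 and 37.5, was the highest of them in CPM, and its log2 fold change was 0.28 ± 0.27. Hoxa5, known for its part in lung and gut maturation, had 30.6, 7.81 and 17.0 CPM against 24.2, 24.2 and 13.1. It was lowest in Vil-KO 2 and f/f 3, the libraries that stood apart. Its log2 fold change was -0.15 ± 0.50.

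Hoxa6 was lowest in the same libraries, with 7.93, 2.55 and 5.92 CPM against 6.09, 5.13 and 0.968, and its log2 fold change was 0.42 ± 0.71. Hoxa3 was nearly even, with 15.2, 8.75 and 10.7 CPM against 12.9, 14.5 and 10.2, at -0.12 ± 0.30. Hoxa4 had 0.681 CPM in Vil-KO 1, 3.88 in Vil-KO 2 and 0.816 in Vil-KO 3, against 0.693, 1.30 and 0.565. The groups of Hoxa4 overlapped, and its log2 fold change of 1.06 ± 0.80 came from Vil-KO 2, since it was -0.19 without that library.

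Hoxa2, a hindbrain and neural crest gene, was the only tested HoxA gene whose groups did not overlap. It had 3.89, 0.443 and 2.96 CPM in the Vil-KO libraries and 4.55, 3.95 and 5.32 in the f/f libraries. The log2 fold change of -0.92 ± 0.71 did not pass the test, with p = 0.239 unadjusted and an adjusted p of 0.999 by edgeR, and the exact permutation p was 0.1, the smallest possible.

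Summed over its 11 genes, the HoxA cluster had 339, 215 and 226 CPM in Vil-KO and 261, 272 and 258 in f/f. The means were 260 ± 68.7 and 264 ± 7.08 (SD, n = 3 each), so the genotypes were level and the spread lay within Vil-KO.

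The middle HoxD genes were low and mixed. Hoxd9 had 1.75, 3.43 and 2.04 CPM in Vil-KO and 1.53, 1.71 and 1.13 in f/f, without overlap, at a log2 fold change of 0.72 ± 0.46 that did not pass the test. Hoxd10, at 3.12, 1.61 and 4.18 CPM against 5.34, 6.08 and 2.82, had a log2 fold change of -0.68 ± 0.50. Hoxd9 and Hoxd10 are neighbours that pattern the lumbar and limb region, and their fold changes had opposite signs.

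Hoxd11 had 3.12, 4.21 and 5.10 CPM against 4.16, 4.54 and 1.77, and its groups overlapped at 0.24 ± 0.47. Hoxd12 had 2.24, 0.886 and 2.60 CPM against 2.47, 2.01 and 0.807, with the lowest values in the libraries that stood apart, at 0.11 ± 0.61. Both belong to the 5′ genes that act with Hoxd13 in limb and hindgut. Hoxd8 was not tested and had 1, 23 and 2 counts in Vil-KO against 10, 6 and 6 in f/f. It too was highest in Vil-KO 2, while Vil-KO 1 and Vil-KO 3 were below every f/f library. The HoxD sum was 102 ± 32.5 CPM in Vil-KO and 121 ± 26.9 in f/f (SD, n = 3 each).

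Hoxb9 was the only other abundant HoxB gene beside Hoxb13. It had 45.9, 110 and 37.7 CPM in Vil-KO and 39.4, 44.9 and 52.4 in f/f, with 1 value far above the rest in Vil-KO 2. The log2 fold change was 0.50 ± 0.41, and it was -0.12 without that library.

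The HoxB genes towards the 3′ end were low in every library, and Hoxb2 to Hoxb8 were each highest in Vil-KO 2. Hoxb6 (ENSMUSG00000000690, chr11:96292476-96301569), the Hox gene that met the criterion, had 0.925, 6.31 and 0.510 CPM in the Vil-KO libraries and 0.346, 0.059 and 0.161 in the f/f libraries. In counts these were 19, 114 and 10 against 7, 1 and 2, so every Vil-KO library was above every f/f library and Vil-KO 2 was far above all. The log2 fold change was 3.68 ± 1.18 with p = 0.0168 unadjusted and an adjusted p of 0.999 by edgeR, and the exact permutation p was 0.1. Hoxb6 passed the count filter through the Vil-KO libraries, where it was high. Without Vil-KO 1 or Vil-KO 2 it had too few counts to be tested. Its log2 fold change was 3.27 without f/f 2, 3.59 without f/f 3 and 1.76 without Vil-KO 2 and f/f 3 together, and in these 3 cases it did not pass.

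Its neighbours Hoxb7 and Hoxb8 repeated the order of the 3 Vil-KO libraries. Hoxb7 had 10, 106 and 4 counts in Vil-KO against 2, 2 and 0 in f/f, or 0.487, 5.87 and 0.204 CPM against 0.0989, 0.118 and 0. Hoxb8 had 17, 79 and 9 counts against 4, 6 and 2, or 0.828, 4.38 and 0.459 CPM against 0.198, 0.354 and 0.161. In both genes each Vil-KO library was above each f/f library, Vil-KO 2 was highest and Vil-KO 3 was lowest of the 3.

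Hoxb5 had 15, 26 and 3 counts against 0, 0 and 0, a mean at least 4.09-fold higher when each f/f library is set at its floor of 3 counts, and at least 2.33-fold higher without Vil-KO 2. The value without Vil-KO 2 rests on Vil-KO 1, since Vil-KO 3 held 3 counts, the floor itself. Hoxb4 had 13, 24 and 1 counts against 7, 3 and 0, and the groups overlapped. Hoxb3 had 15 counts and Hoxb2 had 5 in Vil-KO 2, and all other libraries together held 1 count of the pair. Exons of the antisense transcript Hoxb3os lie opposite 52.9% of the Hoxb3 and 27.3% of the Hoxb2 exon bases. These few reads cannot be assigned to a strand if strand was not used in counting. Hoxb1, at the 3′ end, had no count in Vil-KO 2.

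Hoxb2, Hoxb3, Hoxb4, Hoxb5, Hoxb7 and Hoxb8 had too few counts for the filter of the test. Among the 18 tested Hox genes, 2 had non-overlapping groups with Vil-KO higher (Hoxb6 and Hoxd9) beside 5.21% of all tested genes, and 1 with Vil-KO lower (Hoxa2) beside 4.71%. Among the 11 Hox genes with a count that were not tested, 4 had non-overlapping groups with Vil-KO higher (Hoxb5, Hoxb7, Hoxb8 and Hoxd4) beside 2.04% of untested genes with a count, and 0 lower beside 2.98%. A gene at 0 in some library of each genotype cannot show this, and those shares include such genes, Hoxb3 among them. The shares are therefore not a background matched in counts. Hoxd4 rested on 1, 3 and 3 counts against 0, and 52.3% of its exon bases are shared with other genes on the same strand, Hoxd3 among them. Hoxb4, Hoxb6, Hoxb7 and Hoxb8 share no exon base with another annotated gene. Without a filter 5 of the 29 Hox genes with a count passed the criterion, Hoxb5, Hoxb6, Hoxb7, Hoxb8 and Hoxd4, beside 2.59% of 26360 genes. That share, too, includes genes of very few counts. At an adjusted p below 0.05, 0 passed.

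**Figure D4:**
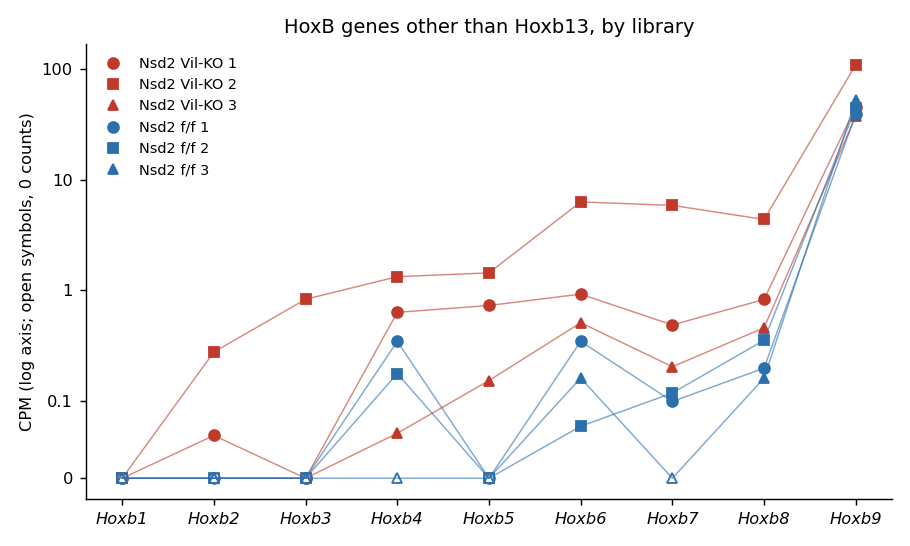
CPM of Hoxb1 to Hoxb9 (log axis) in the 6 libraries, joined by a line for each library. Red is Vil-KO, blue is f/f, and open symbols on the bottom line have 0 counts. Vil-KO 2 (red squares) is highest from Hoxb2 to Hoxb9, and the 3 red symbols lie above the blue ones at Hoxb5, Hoxb6, Hoxb7 and Hoxb8.

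Summed over Hoxb1 to Hoxb8, the level was 3.65, 20.4 and 1.38 CPM in Vil-KO and 0.990, 0.708 and 0.323 CPM in f/f. The means of 8.49 and 0.673 CPM had a ratio of 12.6, which fell to 3.73 without Vil-KO 2 and to 2.96 when f/f 3 was left out as well. Even at the highest, the 8 genes made up 2.67% of the Hox CPM of that library. The sum over the whole cluster, most of it Hoxb13, was 362 ± 108 CPM in Vil-KO and 489 ± 221 in f/f (SD, n = 3 each), with a log2 ratio of -0.43 that was -0.00099 without f/f 3.

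Cell types other than epithelium also use 3′ Hox genes, so marker sums were set beside the Hoxb1 to Hoxb8 sum. The 7 fibroblast markers summed to 71.3, 5.21 and 15.7 CPM in Vil-KO and 266, 58.2 and 5.89 CPM in f/f. They were highest in f/f 1 and lowest in Vil-KO 2, the library with the highest Hoxb1 to Hoxb8 sum, where the collagen gene Col3a1 was at 0.665 CPM. The 10 immune markers summed to 159, 992 and 60.9 CPM against 727, 138 and 24.4, and were highest in that same library, through the neutrophil genes S100a8 at 573 CPM and S100a9 at 404 CPM. The other 8 immune markers summed to 76.5, 14.9 and 28.4 CPM against 173, 57.8 and 16.7, and were lowest in Vil-KO 2. f/f 1 came next with an immune sum of 727 CPM and had a Hoxb1 to Hoxb8 sum of 0.990 CPM.

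Of the other markers, the 6 of smooth muscle summed to 3.32 to 12.3 CPM in Vil-KO and 2.18 to 20.5 in f/f. The 4 of endothelium summed to 0.609 to 2.29 against 2.18 to 3.31 CPM, and the 5 of enteric neurons and glia to 0.222 to 0.816 against 0.885 to 1.29 CPM. In Vil-KO 2 Cdh5 of endothelium was at 0.0554 CPM and the leukocyte gene Ptprc at 5.71 CPM, beside 5.73 CPM of Ptprc in f/f 3. The glial factor Sox10 was at 0 in each Vil-KO library and in f/f 3. S100b of the same list was at 0.222 CPM in Vil-KO 2, within its range of 0 to 0.403 CPM in f/f. The 7 colonocyte and goblet markers summed to 4480 to 9030 CPM in Vil-KO and 9970 to 13300 in f/f, lowest in Vil-KO 2, and 7 of 7 had a log2 fold change below 0, beside 50.2% of all tested genes above 0. Of these, 1 passed the criterion, beside 2.96% of all tested genes: Clca1, a secreted goblet cell protein, at -1.64 ± 0.62 and an adjusted p of 0.999 by edgeR. The highest colonocyte and goblet sum was in f/f 3, which stood apart. Car1 had 300, 598 and 112 CPM against 112, 157 and 1310, and Slc26a3 had 625, 229 and 685 against 371, 413 and 1420. These 2 had lower means in Vil-KO through f/f 3, and the rest of that list did not depend on it. The 8 epithelial markers summed to 16500 to 24300 against 14900 to 24900 CPM. The 7 small intestinal markers summed to 13.8 to 35.8 against 19.0 to 90.7 CPM. The part of these cell types in the HoxB pattern was not tested, and in bulk RNA fewer cells of a type and less RNA per cell cannot be told apart.

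**Figure D5:**
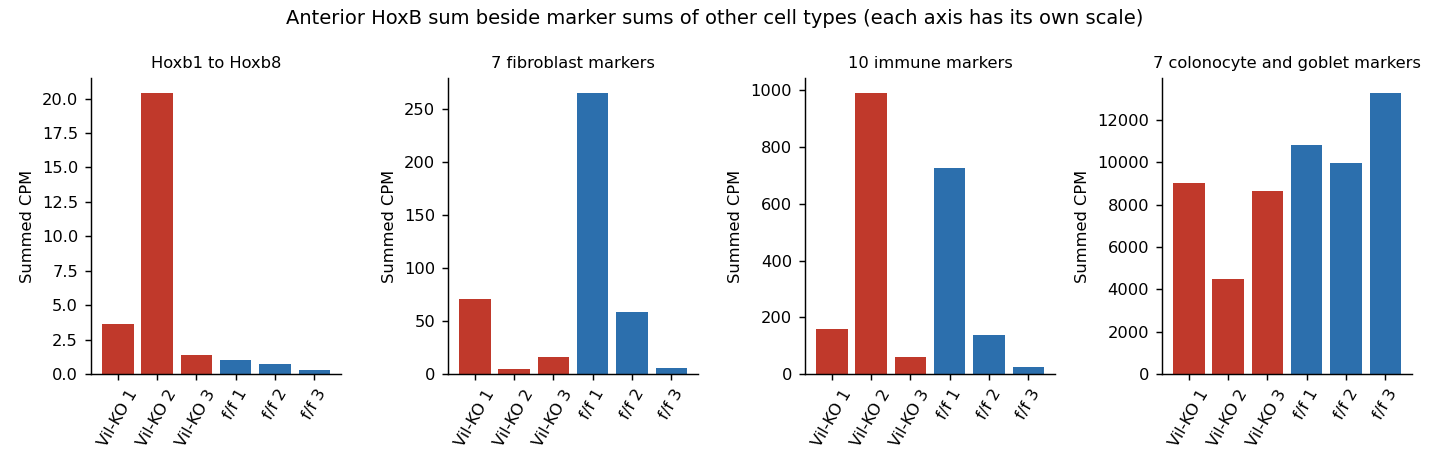
Summed CPM per library of Hoxb1 to Hoxb8, of 7 fibroblast markers, of 10 immune markers and of 7 colonocyte and goblet markers, each panel with its own linear axis from 0. Red bars are Vil-KO and blue bars f/f. Vil-KO 2 has the tallest Hoxb1 to Hoxb8 bar at 20.4 CPM, the tallest immune bar at 992, of which S100a8 and S100a9 make up 573 and 404, and the lowest fibroblast bar at 5.21.

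Promoter sequences are shown for Hoxb8, one of the 3′ HoxB genes of the pattern above, and for Hoxa7, an abundant gene of the middle of HoxA. Of the Hox promoters available, these held the most matches to the letters marked. They are the 250 bases before the start site in RefSeq on GRCm38.p6, for Hoxb8 at chr11:96281655-96281904 on the plus strand and for Hoxa7 at chr6:52218574-52218823 on the minus strand. Capitals mark TTTATG, a form of the site bound by Cdx factors, or its reverse complement.
Hoxb8: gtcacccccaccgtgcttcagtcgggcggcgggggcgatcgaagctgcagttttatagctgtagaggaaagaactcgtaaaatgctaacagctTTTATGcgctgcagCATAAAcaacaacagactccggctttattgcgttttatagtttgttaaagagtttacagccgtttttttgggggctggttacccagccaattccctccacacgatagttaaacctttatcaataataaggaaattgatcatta
Hoxa7: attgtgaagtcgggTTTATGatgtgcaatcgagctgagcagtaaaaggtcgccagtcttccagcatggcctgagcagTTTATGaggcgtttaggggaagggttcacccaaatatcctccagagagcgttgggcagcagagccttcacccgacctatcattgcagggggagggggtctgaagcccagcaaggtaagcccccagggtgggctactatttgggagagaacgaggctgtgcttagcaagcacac

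Both windows held the 6 letters at 2 places, more than any other Hox window, so they do not stand for their neighbours. The windows of Hoxb4 in HoxB and of Hoxa5, Hoxa9, Hoxa10 and Hoxa13 in HoxA held none. RefSeq gave 24 promoters for 22 of the 39 Hox genes, of which 5 (20.8%) held TTTATG on either strand, beside 10.8% of 32851 promoters of the same length over all genes. The other 3 belonged to Hoxd3, Hoxd4 and Hoxd11. The match is a description of letters and not of binding. The median number of CpG dinucleotides in 250 bases was 12.5 for Hox promoters beside 6 over all promoters, and it reached 35 at Hoxa13 and 31 at Hoxd13. Hoxa9, which was expressed, had 3.

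The Cdx genes lie upstream of Hox genes in the hindgut, and Cdx1 was the highest of 14 axial patterning genes, with 449, 378 and 480 CPM in Vil-KO and 496, 514 and 664 in f/f. The lowest value was in Vil-KO 2, and every Vil-KO library was below every f/f library, at a log2 fold change of -0.36 ± 0.23 that did not pass the test. Cdx2, its paralog, had 158, 179 and 82.5 CPM against 99.1, 90.6 and 102, and its groups overlapped at 0.52 ± 0.30, which did not pass. Of the 9 tested genes of this list 0 passed the criterion, 5 had a log2 fold change above 0 and 4 below, and the median was 0.23. Of 9 TALE genes, whose proteins bind DNA together with Hox proteins, 5 were tested and 0 passed, with a median of -0.13. Pbx2 was the highest of them at 43.3, 58 and 30.9 CPM against 40.8, 41.7 and 46.9.

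Among 18 polycomb genes, all tested, 1 passed upwards and 0 downwards, beside 2.96% of all tested genes in either direction, at a median of 0.08. Cbx7, a chromodomain subunit that reads H3K27me3, was the one that passed, with 27.3, 43.3 and 22.0 CPM against 22.3, 18.3 and 15.6. Its groups overlapped, its log2 fold change was 0.72 ± 0.30 with an unadjusted p of 0.0476 and an adjusted p of 0.999 by edgeR. The criterion was missed without any 1 of Vil-KO 1, Vil-KO 2 or the 3 f/f libraries (log2 fold changes of 0.40 to 0.86), and by limma-voom the log2 fold change was 0.32. Rbbp7 was the highest of the list at 136, 241 and 151 CPM against 148, 170 and 127.

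The 12 trithorax genes had 0 that passed and a median of 0.10, and Kmt2b, an H3K4 methyltransferase, led with 80.9, 65.9 and 77.8 CPM against 61.5, 72.3 and 48.2. Of 13 genes of retinoic acid signalling, which acts on 3′ Hox genes in the embryo, 7 were tested and 0 passed. All 7 had a log2 fold change above 0, with a median of 0.41 beside 50.2% of all tested genes above 0. Each of the 7 was highest in Vil-KO 2, a library that stood apart, and the shared sign was not tested without it. Rxra, a retinoid receptor, was the highest at 80.9, 102 and 82.1 CPM against 63.7, 65.9 and 81.2. The retinaldehyde dehydrogenases Aldh1a1 and Aldh1a3, named after their values were seen, were highest in Vil-KO 2, at 145 and 113 CPM, beside 7.61 to 39.1 and 6.61 to 31.1 CPM in the other 5 libraries. Aldh1a2, of the same family and list, went the other way, with 0.73, 0 and 0 CPM in Vil-KO against 2.23, 0.295 and 0.403 in f/f. The part of retinoic acid in the HoxB pattern was not tested.

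Genes next to and within the clusters did not pass the test. Of 9 tested flanking genes 0 passed, the list median being -0.08, and the highest, Skap2, had 75.7, 106 and 89.0 CPM against 109, 113 and 103. The annotation holds 46 other genes inside the cluster intervals, of which 25 had a count and 11 were tested, and 0 of the 11 had an unadjusted p below 0.05 by edgeR. The antisense transcripts Hoxb3os of HoxB and Hoxd3os1 of HoxD had 4 and 11 counts in Vil-KO 2 and 0 in every other library. Hoxb5os had 1 count in Vil-KO 2, 3 in Vil-KO 1 and 2 in f/f 1. Hotair of the HoxC cluster had 0 in each library.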

How the data were processed

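Colon IECs were profiled in 6 libraries, 3 Nsd2 Vil-KO and 3 Nsd2 f/f, grouped by the titles of the samples. The authors deposited raw counts per Ensembl gene. According to their methods, polyA RNA was sequenced in paired ends, trimmed, and aligned to GRCm38 with HISAT2; which program counted the reads, and whether strand was used, is not given in the sources used here. All 6 columns were used.

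The genotypes were compared with edgeR 4.0.16 under R 4.3.3 (TMM, filterByExpr, robust quasi-likelihood test, Benjamini-Hochberg adjustment over 14650 genes). The criterion of the results of the study, p below 0.05 unadjusted and a fold change over 1.2, was applied, and the adjusted p below 0.05 of its methods was also used. The SE is the log2 fold change over the square root of F. CPM used TMM library sizes and was divided by the union exon length of GENCODE vM21 for CPM per kb; 99.5% of listed genes were found there. Two-sided exact permutation tests used the difference of mean log2(CPM + 0.5). Alternatives used DESeq2 1.42.0, limma 3.58.1 (voom), other scalings and filters, a replicate block, and left out libraries. Intervals and floors of 3 counts cover counting error only. Scripts were tested on simulated data.

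Hox genes averaging at least 1 CPM, or passing the criterion, were named with every value, the rest by range; of the pathway lists, the highest member and those passing were named. Members, lists and the pair of libraries left out together were chosen with earlier results of these data known. Values of single genes that are not reported here remain in the counts and sums of their groups.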

Additional observations from a re-analysis of the deposited data

How the results depend on the processing

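The count of Hox genes that met the fold change and unadjusted p criterion was 1 in the main analysis. It was 5 without a filter and 2 with limma-voom (Hoxb6 and Hoxd10, beside 9.83% of all genes), and 0 with at least 10 counts in every library, where Hoxb6 was not tested, with the replicate block, and without Vil-KO 2 and f/f 3 together. It ranged from 0 to 3 when single libraries were left out, with 0 without Vil-KO 1 or 2, Hoxb5, Hoxb6 and Hoxb8 without Vil-KO 3, Hoxb5 and Hoxb6 without f/f 1, Hoxb5 and Hoxb8 without f/f 2, and Hoxb5 but not Hoxb6 without f/f 3. With limma-voom Hoxb6 had a log2 fold change of 2.19. With the other scalings, robust estimation off, DESeq2 and no fold change limit it was 1. Correlations of same-numbered libraries, as deviations from the genotype means, were 0.322, -0.35 and -0.108. These did not show a pairing by replicate number, but so few libraries cannot exclude it. With the block Hoxb6 had a log2 fold change of 2.97 and did not pass. At an adjusted p below 0.05 the count was 0 in each analysis.

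Detected Hox genes numbered 23, 29 with any count, 15 with at least 10 counts in every library, and 20 to 22 when single libraries were left out. The median log2 fold change of tested Hox genes ranged from -0.07 to 0.41 with single libraries left out, the highest without f/f 1. The Hoxb13 share was 45.9 to 52.1% and 44.3% by CPM. With single libraries left out, the log2 ratio of the cluster sums ranged from -0.258 to 0.0983 for HoxA, which changed sign. It ranged from -0.698 to -0.000992 for HoxB and from -0.46 to -0.0146 for HoxD.

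Signs turned for genes that did not pass. With limma-voom, log2 fold changes were -0.26 (Hoxa4), 0.045 (Hoxa9), -0.37 (Hoxa11), -0.0060 (Hoxb9) and -0.039 (Hoxd11). Without the pair of libraries they were -0.39 (Hoxa4), 0.16 (Hoxa9), -0.32 (Hoxa11), -0.00043 (Hoxb9) and -0.074 (Hoxd11), and by library size alone 0.060 (Hoxa9). With single libraries left out they ranged from -0.37 to 0.044 (Hoxa3), -0.19 to 1.49 (Hoxa4), -0.72 to 0.21 (Hoxa5), -0.034 to 0.83 (Hoxa6), -0.0059 to 0.43 (Hoxa7), -0.44 to 0.28 (Hoxa9), -0.065 to 0.16 (Hoxa10), -0.11 to 0.49 (Hoxa11), -0.50 to 0.014 (Hoxa13), -0.12 to 0.78 (Hoxb9), -0.067 to 0.48 (Hoxd11) and -0.23 to 0.44 (Hoxd12). The cause was not tested. Nsd2 kept its direction in each analysis and missed the criterion by library size alone and without f/f 1 or 2. Genes near 3 counts per library cannot be compared at this depth.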

Other observations

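Among the axial patterning genes counted above are the homeobox genes beside the clusters. Evx1, beyond the 5′ end of HoxA, had 7.06, 13.9 and 3.72 CPM in Vil-KO and 5.24, 3.13 and 2.90 CPM in f/f, highest in Vil-KO 2, at a log2 fold change of 1.12 ± 0.54 (SE) that did not pass the test. Evx2, beyond the 5′ end of HoxD, had 6.96, 4.38 and 5.56 CPM against 5.19, 4.90 and 4.36 CPM.

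Of the Hox cofactors, Meis1 and Meis2 were at or below 0.693 CPM in each library, while Pknox1 lay between 10.6 and 21.7 CPM. Over the 23 detected Hox genes, Vil-KO 2 held the highest CPM for 9 and the lowest for 6, and f/f 3 the highest for 4 and the lowest for 10.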
